A study of Mus musculus with 51 samples.

Results

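Early astrocytes (eA) were described here through the peaks of 2 histone marks, H3K27ac and H3K4me1, at day 1 of astroglial differentiation. Mouse embryonic stem cells of C57/BL-6 background were turned in culture into astrogliogenic neural precursor cells (aNPC), which were grown with EGF and FGF-2, and eA were these cells after 1 day in a medium of DMEM, serum and the cytokine LIF. Both marks were profiled by ChIP-seq in the same stage, with 2 replicates for each mark, whose reads the authors merged before peaks were called, so that 1 peak list per mark exists and no error between cultures can be given. All cells are the progeny of stem cells in culture, no sorting step is given in the labels, and the number of reads behind each list is unknown here. The lists of eA held 262575 peaks on chromosomes 1 to 19, out of 803622 peaks in the 6 lists of the series on all chromosomes, and every one of the 262575 was placed in a class. A peak belonged with the other mark if it overlapped a peak of that mark by at least 1 bp, and otherwise it was without the other mark. This rule gave 4 classes: H3K27ac peaks with H3K4me1, H3K27ac peaks without H3K4me1, H3K4me1 peaks with H3K27ac, and H3K4me1 peaks without H3K27ac.

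H3K27ac is acetylation of lysine 27 on the histone H3 tail. It marks active enhancers and active promoters, and is laid down largely by the acetyltransferases CBP and p300. H3K4me1 is monomethylation of lysine 4 on the same tail. It covers enhancers whether or not they are active, and it flanks active promoters, where the central nucleosomes carry trimethylation instead. A distal site with both marks is commonly read as an active enhancer, and one with H3K4me1 alone as a primed or poised enhancer. In the astroglial lineage such enhancers lie around genes for the filament protein GFAP, glutamate transporters, gap junction proteins and the factors NFIA and SOX9, and LIF acts through the gp130 receptor and STAT3.

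Sequences under peaks of each class are shown so that their base composition can be compared. In each class the peak with the highest −log10 q at a gene of the astroglial marker list was taken, with up to 300 bases about its summit, on the plus strand of mm9. Windows that overlapped an annotated exon were passed over, and peaks given to Aqp4 were not used here. CpG dinucleotides are in capitals. The H3K27ac peak with H3K4me1 lay in an intron of Aldh1l1, a folate enzyme gene and astrocyte marker, at chr6:90490963-90491262. The H3K27ac peak without H3K4me1 lay inside the glycolytic gene Aldoc, at chr11:78136938-78137237, 614 bp upstream of an internal start site. In that class 3 peaks of higher −log10 q were passed over as exonic. The H3K4me1 peak with H3K27ac lay in another intron of Aldh1l1, at chr6:90458696-90458995. The H3K4me1 peak without H3K27ac lay 27959 bp upstream of the connexin gene Gjb6, at chr14:57780257-57780556, and 44125 bp from the nearest H3K27ac peak.
Aldh1l1, H3K27ac with H3K4me1: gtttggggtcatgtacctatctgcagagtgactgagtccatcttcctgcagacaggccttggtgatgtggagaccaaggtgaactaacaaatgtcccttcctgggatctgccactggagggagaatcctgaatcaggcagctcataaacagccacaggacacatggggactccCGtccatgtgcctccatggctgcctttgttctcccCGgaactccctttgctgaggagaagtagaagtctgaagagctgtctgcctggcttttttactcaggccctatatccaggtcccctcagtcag
Aldoc, H3K27ac without H3K4me1: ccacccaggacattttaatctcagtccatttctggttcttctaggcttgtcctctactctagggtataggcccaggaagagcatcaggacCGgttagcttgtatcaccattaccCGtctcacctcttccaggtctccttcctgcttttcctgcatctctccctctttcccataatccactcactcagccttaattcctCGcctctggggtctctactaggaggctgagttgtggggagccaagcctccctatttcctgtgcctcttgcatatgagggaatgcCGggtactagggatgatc
Aldh1l1, H3K4me1 with H3K27ac: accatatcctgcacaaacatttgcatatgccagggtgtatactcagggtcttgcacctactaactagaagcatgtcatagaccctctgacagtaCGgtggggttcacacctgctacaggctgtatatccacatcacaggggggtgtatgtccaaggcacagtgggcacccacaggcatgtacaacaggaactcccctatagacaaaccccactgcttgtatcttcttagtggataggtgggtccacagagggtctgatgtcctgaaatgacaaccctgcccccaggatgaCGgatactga
Gjb6, H3K4me1 without H3K27ac: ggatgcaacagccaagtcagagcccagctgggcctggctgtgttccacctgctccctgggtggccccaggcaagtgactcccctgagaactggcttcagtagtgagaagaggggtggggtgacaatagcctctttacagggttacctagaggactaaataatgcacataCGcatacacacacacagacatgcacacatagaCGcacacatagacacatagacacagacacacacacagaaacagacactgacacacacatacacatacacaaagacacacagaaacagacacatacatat
These 4 windows held 2, 4, 2 and 2 CpG dinucleotides.

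A pair of promoter windows is shown as examples from astroglial genes, and their difference in CpG content was fixed by the choice. The Gfap window, chr11:102759094-102759393, lay under an H3K27ac peak of 1653 bp with an H3K4me1 peak of 839 bp on it. The window was inside the gene, 730 bp upstream of an internal coding start site. The Vim window, chr2:13495142-13495441, lay under an H3K27ac peak of 480 bp without H3K4me1, 262 bp upstream of the start site. It was chosen after its values were seen, as the window with the highest CpG ratio among the promoter peaks of that class at astroglial genes, after 4 exonic windows were passed over.
Gfap, H3K27ac with H3K4me1: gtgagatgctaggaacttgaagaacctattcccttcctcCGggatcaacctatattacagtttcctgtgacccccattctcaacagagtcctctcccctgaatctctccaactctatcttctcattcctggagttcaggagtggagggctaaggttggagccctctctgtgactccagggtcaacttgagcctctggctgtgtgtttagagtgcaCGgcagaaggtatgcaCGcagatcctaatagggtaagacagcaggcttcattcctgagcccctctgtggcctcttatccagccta
Vim, H3K27ac without H3K4me1: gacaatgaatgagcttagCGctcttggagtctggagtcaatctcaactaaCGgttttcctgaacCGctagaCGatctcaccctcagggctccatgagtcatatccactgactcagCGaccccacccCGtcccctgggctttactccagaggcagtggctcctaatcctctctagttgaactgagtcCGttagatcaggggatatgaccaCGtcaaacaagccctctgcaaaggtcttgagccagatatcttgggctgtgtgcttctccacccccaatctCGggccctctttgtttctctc
The Vim window held 9 CpG dinucleotides and the Gfap window held 3. The nearest H3K4me1 peak lay 124 bp from the Vim peak.

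Most H3K27ac peaks of eA lay on an H3K4me1 peak, and most H3K4me1 peaks had no H3K27ac. Of 81348 H3K27ac peaks, 70624 (86.8%, 95% Wilson interval 86.6 to 87.0%) overlapped an H3K4me1 peak and 10724 (13.2%) did not. Of 181227 H3K4me1 peaks, 65302 (36.0%, 35.8 to 36.3%) overlapped an H3K27ac peak and 115925 (64.0%) did not. In bases, the lists shared 29.8 Mb, which was 68.9% of the 43.2 Mb under H3K27ac and 27.2% of the 109 Mb under H3K4me1. The shares were alike on every autosome, from 85.2 to 88.3% of the H3K27ac peaks and from 34.4 to 38.7% of the H3K4me1 peaks. These intervals, like all others here, cover counting error only, over peaks or, for promoter states, over start sites. With each list reduced to its 81348 peaks of highest −log10 q, 69.2% of the H3K27ac peaks and 58.9% of the H3K4me1 peaks had the other mark. Since the H3K27ac list has that length already, this setting kept it whole and took the H3K4me1 peaks of highest −log10 q, so that list length and peak strength changed together.

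H3K4me1 peaks with H3K27ac were wider than those without it. Their median width was 777 bp (quartiles 477 and 1140 bp), against 366 bp (244 and 590 bp) for H3K4me1 alone. In the H3K27ac list, peaks with H3K4me1 had a median width of 414 bp (231 and 746 bp) and those without it 251 bp (168 and 496 bp). With the summit required inside a peak of the other mark, this order turned, with 377 bp with and 452.5 bp without H3K4me1. A wider peak has more bases that can touch the other mark, so the shares were also given by width. From the narrowest to the widest quintile of the H3K4me1 list, the share with H3K27ac went from 12.02 to 71.3%. In the H3K27ac list it went from 77.0% in the narrowest quintile to 92.2% in the fourth and 91.3% in the widest. By −log10 q the H3K4me1 list rose likewise, from 10.9% in the lowest quintile to 73.4% in the highest, while the H3K27ac list rose from 81.7 to 92.0% over 4 quintiles and then stood at 83.4% in the highest quintile.

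**Figure D1:**
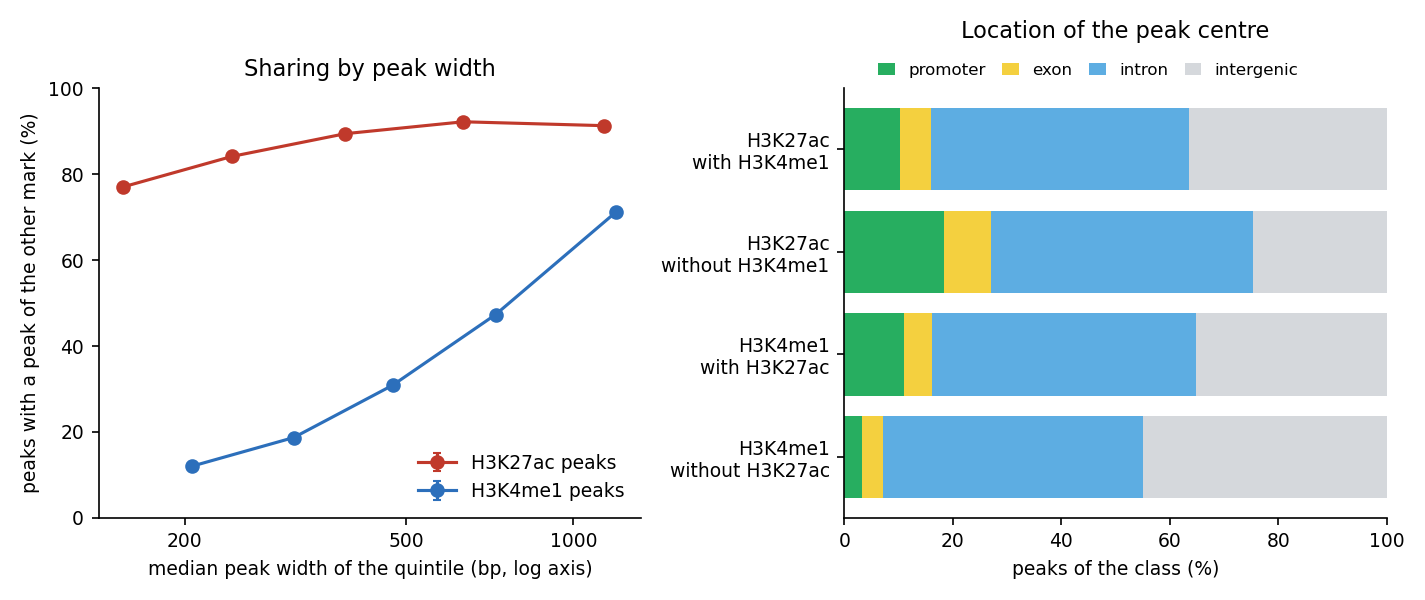
Left, the share of peaks (%) with a peak of the other mark against the median width (bp, log axis) of each quintile of the H3K27ac and the H3K4me1 list, with 95% Wilson intervals that are smaller than the points; the H3K4me1 share climbs from 12.02 to 71.3%. Right, the location of the peak centre in each of the 4 classes as a share (%) of its peaks, with promoters at 10.3, 18.3, 10.9 and 3.18% from top to bottom.

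Where both marks met, the H3K27ac summit mostly lay within the H3K4me1 peak. Of the shared H3K27ac peaks, 49.5% were wholly inside H3K4me1 peaks, whereas 11.1% of the shared H3K4me1 peaks were wholly inside H3K27ac peaks. The H3K27ac summit was inside an H3K4me1 peak for 84.8% of the shared peaks, and the median distance to the nearest H3K4me1 summit was 187 bp. Promoters differed from other sites in this respect. At promoters, 22.4% of the shared H3K27ac peaks were wholly inside H3K4me1, 60.6% had their summit inside it, and the summits were 286 bp apart in the median. Away from promoters the values were 52.6%, 87.6% and 178 bp. More than 1 H3K4me1 peak lay on 14.4% of the shared H3K27ac peaks at promoters and on 8.201% of the others.

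H3K27ac without H3K4me1 was seldom far from H3K4me1, and H3K4me1 without H3K27ac was often far from H3K27ac. The median gap from an H3K27ac peak of the first kind to the nearest H3K4me1 peak was 381 bp (quartiles 169 and 1124 bp). For 73.0% of these peaks it was at most 1 kb, and for 10.1%, or 1082 peaks, it was over 5 kb. The median gap from an H3K4me1 peak without H3K27ac to the nearest H3K27ac peak was 8339 bp (1893 and 23496 bp), and 61.8%, or 71640 peaks, were over 5 kb away. At promoters the latter gap was 998 bp in the median, and elsewhere it was 8555 bp.

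The classes differed in their distance to start sites of coding genes. Promoters here reach from 1 kb before a start site to 100 bp after it, and the peak centre had to fall there. In the H3K27ac list, 18.3% (17.6 to 19.1%) of the peaks without H3K4me1 and 10.3% (10.0 to 10.5%) of those with it were at a promoter. In the H3K4me1 list, the order was the other way: 10.9% (10.7 to 11.2%) of the peaks with H3K27ac and 3.18% (3.08 to 3.28%) of those without it were at a promoter. The median distance from the summit to the nearest start site was 8337 bp for H3K27ac alone and 22122 bp for H3K27ac with H3K4me1. It was 19526.5 bp for H3K4me1 with H3K27ac and 33314 bp for H3K4me1 alone. Summits within 1 kb of a start site made up 35.7% of H3K27ac alone and 4.99% of H3K4me1 alone, and 19.6 and 19.4% of the shared peaks of the H3K27ac and the H3K4me1 list. More than 50 kb away were 21.3% of H3K27ac alone, 31.6% of H3K27ac with H3K4me1, 29.9% of H3K4me1 with H3K27ac and 40.4% of H3K4me1 alone.

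The difference inside the H3K4me1 list had the same direction in all 5 quintiles of width, from 16.2 against 2.80% in the narrowest to 5.60 against 3.90% in the widest. The difference inside the H3K27ac list also had the same direction in every quintile of width, from 8.86% without against 4.45% with H3K4me1 in the narrowest to 24.5 against 16.9% in the widest, and in every quintile of −log10 q. It turned, however, when peaks within 500 bp of each other were joined in each list. The joined H3K27ac regions without H3K4me1 were at promoters in 8.99% and those with it in 10.3%. With H3K4me1 accepted within 1 kb of a peak, the values were 12.4 and 11.3%, and their intervals overlapped. Joining changed both lists at once, and the part of each was not tested. Introns held from 47.5 to 48.8% of the peaks in each of the 4 classes. Intergenic positions held 36.5% of H3K27ac with H3K4me1 and 24.6% of H3K27ac alone, and 35.1% of H3K4me1 with H3K27ac and 45.0% of H3K4me1 alone.

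CpG content also differed between the classes. In the 200 bp about the summit, the ratio of observed to expected CpG was at least 0.6 in 29.6% of the H3K27ac peaks without H3K4me1 and in 14.5% of those with it. In the H3K4me1 list the values were 7.06% with H3K27ac and 3.02% without it. Median GC content lay from 48.5 to 49.5% in all 4 classes. At promoters, the median CpG ratio was 0.72 for H3K27ac alone and 0.61 for H3K27ac with H3K4me1, and in introns it was 0.24 and 0.20.

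The 43976 distinct start sites of coding transcripts were therefore split by their CpG content. A site was CpG-rich if the ratio was at least 0.6 and the GC content at least 50% from 250 bp upstream to 50 bp downstream. At the 19593 CpG-rich sites, H3K27ac peaks covered the start itself in 60.5% and the position 200 bp downstream in 80.9%, with an upstream maximum of 59.5% at 300 bp and a dip to 44.0% at 100 bp upstream. H3K4me1 peaks covered the start in 15.4%, and their coverage was highest on both flanks, at 39.4% 550 bp upstream and 50.6% 900 bp downstream. At the 24383 CpG-poor sites the H3K4me1 profile had no such dip, with 18.02% 200 bp upstream, 18.3% at the start and 18.9% 100 bp downstream. H3K27ac covered 16.2% of the CpG-poor starts and at most 19.3%, again 200 bp downstream. At 5 kb on either side of CpG-rich starts, coverage was 5.77 and 6.22% for H3K4me1, and 2.16 and 1.54% for H3K27ac.

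**Figure D2:**
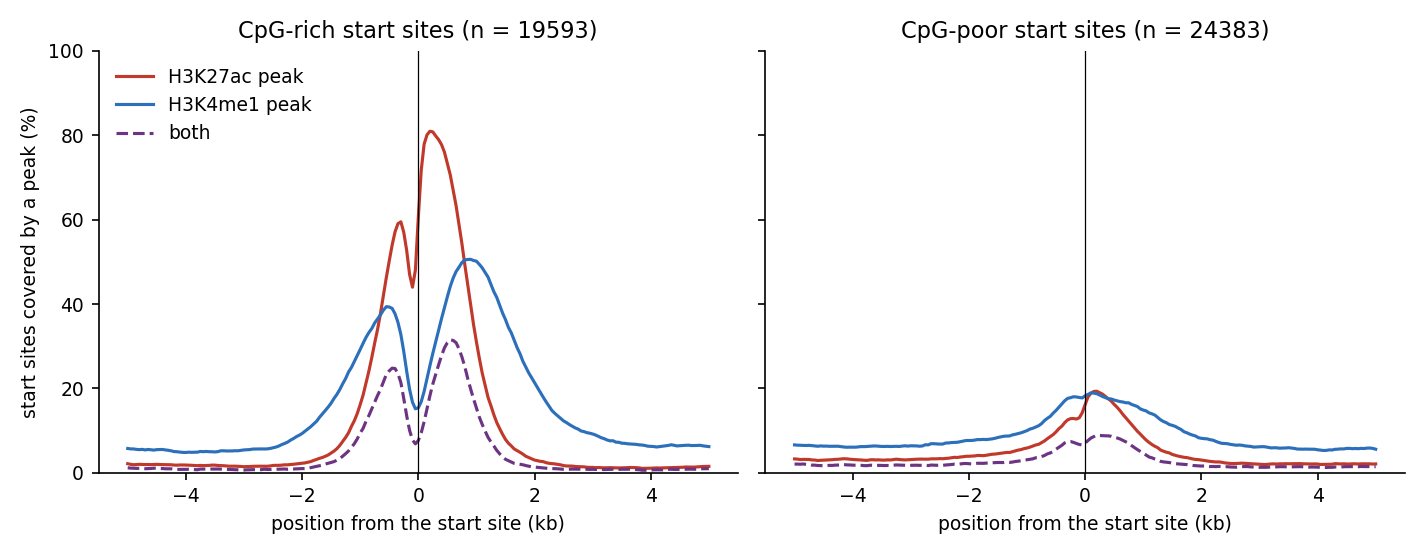
The share of coding start sites (%) covered by an H3K27ac peak, an H3K4me1 peak or both at each position from 5 kb upstream to 5 kb downstream (kb), for 19593 CpG-rich and 24383 CpG-poor sites. At CpG-rich sites H3K4me1 is at 15.4% at the start, between flanks of 39.4 and 50.6%, and its lowest value between them is 15.2%, 50 bp upstream. At CpG-poor sites it is at 18.02% 200 bp upstream, 18.3% at the start and 18.9% 100 bp downstream, and lower farther away.

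For the state of a promoter, any peak that overlapped it by at least 1 bp was counted, wherever the peak's centre lay. By that rule, 66.5% (65.8 to 67.1%) of the CpG-rich sites had peaks of both marks, 20.5% (19.97 to 21.1%) had H3K27ac only, 7.24% had H3K4me1 only and 5.76% had neither. Of the CpG-poor sites, 20.5% (19.99 to 21.0%) had both, 4.43% had H3K27ac only, 13.5% (13.1 to 14.0%) had H3K4me1 only and 61.6% had neither. Start sites of 1 gene can share a peak and are not independent, so these intervals are too narrow. Read from the other side, 78.8% of the sites with H3K27ac only and 72.3% of those with both marks were CpG-rich. Among sites with H3K4me1 only the share was 30.1%, and among sites with neither mark it was 6.996%.

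A gene's promoter state was set in the same way over all its coding start sites, so that both marks at a gene need not lie in overlapping peaks. Likewise, a promoter with H3K27ac only can hold an H3K27ac peak that overlaps H3K4me1 outside the promoter, so this state is not the class without H3K4me1. Of 21281 coding genes, 44.6% had both marks at a promoter, 9.26% had H3K27ac only, 10% had H3K4me1 only and 36.1% had neither. These shares are the background for the gene lists that follow, which were chosen with earlier results of these data known and carry no test. Of 18 astroglial marker genes, 11 had both marks. They included Gfap (glial filament), Slc1a2 and Slc1a3 (glutamate transporters), Glul (glutamine synthetase), Sox9 (a gliogenic transcription factor), Apoe and Clu (secreted lipid carriers), Cd44, Fabp7, Vim and Fgfr3. Aldoc, Gja1 and Sparcl1 had H3K27ac only, and all of them had both marks when 1 kb on either side of the start was searched. Aqp4 (the water channel of astrocyte end-feet), S100b (a calcium-binding protein) and Gjb6 had H3K4me1 only under either definition, and Aldh1l1 had neither at the narrower and H3K4me1 only at the wider one.

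Beside them, the promoters of other gene lists were counted. Of 15 housekeeping genes, 13 had both marks and the other two, Rplp0 and Rps3, had H3K27ac only. Of 11 neural progenitor genes, 8 had both marks, among them Nes, Sox2 and Pax6, while Hes5 had H3K4me1 only and Hes1 had neither at the narrower promoter and H3K27ac only at the wider one. Of 17 neuronal genes, 4 had both marks (Tubb3, Map2, Eomes and Gad1), 8 had H3K4me1 only and 5 had neither. The neuronal genes with H3K4me1 only included the proneural factor genes Neurod1, Neurod4, Neurog1 and Neurog2 as well as Rbfox3, Syt1, Slc17a7 and Gad2. With the wider promoter, Rbfox3 and Syt1 had both marks. Of 10 oligodendrocyte genes, Olig1 and Pdgfra had both marks and 6 had neither. One marker gene each of microglia (P2ry12 of 7) and endothelium (Kdr of 5) had both marks, and no fibroblast gene of 6 did. With the wider promoter, the fibroblast gene Col1a1 had both marks, as did 3 of the 10 oligodendrocyte genes. Of all coding genes, 53.5% had both marks, 2.60% H3K27ac only, 10.3% H3K4me1 only and 33.6% neither by the wider definition. Of 10 pluripotency genes, Klf4 and Esrrb had both marks, and Pou5f1 and Nanog had neither. The part of residual or other cells in these values was not tested.

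Genes of 3 transcription factor families and of the pathway that LIF uses were counted next. Of 16 genes for NFI, AP-1 and RUNX factors, 13 had both marks, Jun and Fosl2 had H3K27ac only and Runx3 had H3K4me1 only. This list and the next, which holds Stat3, took in factors that the study chose on these samples, so their counts are not independent evidence. Nfia, an early factor of gliogenesis, had 45 H3K27ac peaks with and 10 without H3K4me1, and 53 H3K4me1 peaks without H3K27ac. Nfib had 37, 9 and 51, and Runx2 20, 0 and 42. These are long genes, of 429 kb (Nfia), 416 kb (Nfib) and 319 kb (Runx2), against a median of 15.6 kb over all coding genes. Of 12 genes of the gp130 and STAT3 pathway, 8 had both marks, including the receptor genes Lifr and Osmr, Jak2, Stat3 and the feedback inhibitor Socs3. Socs3 had 11 H3K27ac peaks with and 2 without H3K4me1, and Stat3 had 5 and 1. Jak1 had H3K27ac only at the narrower and both marks at the wider promoter, and Il6st (gp130 itself), Cntfr and Tyk2 had neither under either definition. Of 39 Hox genes, 5 had both marks, 2 had H3K27ac only, 12 had H3K4me1 only and 20 had neither.

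**Figure D3:**
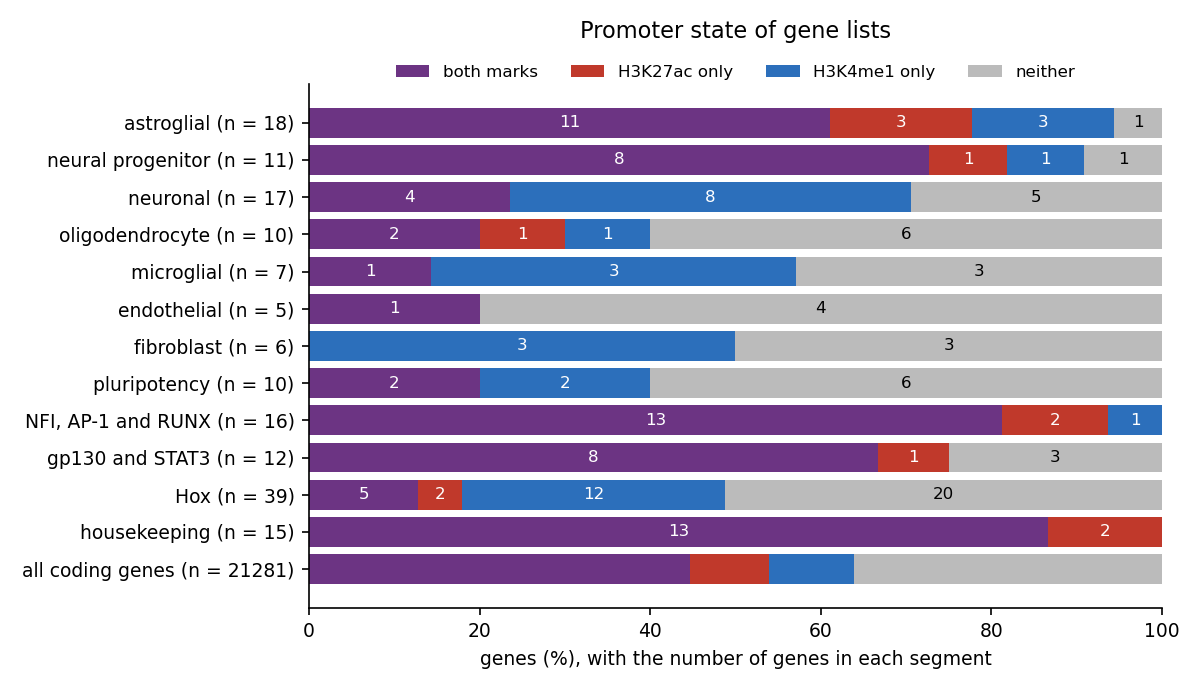
The share of genes (%) in each list whose promoter had peaks of both marks, H3K27ac only, H3K4me1 only or neither, with the number of genes printed in each segment and all 21281 coding genes in the lowest bar. Both marks stood at 11 of 18 astroglial and 13 of 15 housekeeping genes, and at 4 of 17 neuronal genes.

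Peaks were also given to genes, each to the gene of the nearest coding start site if its centre lay in a coding gene or within 50 kb of that start. H3K27ac or H3K4me1 peaks were given to 17272 of 21281 genes, and 14284 genes had at least 1 shared peak. Among the H3K4me1 peaks given to any gene, 61.8% were without H3K27ac. For the astroglial genes this share was 53.0% (133 of 251 peaks), for the neuronal genes 72.9% (153 of 210) and for the housekeeping genes 52.1% (50 of 96). High shares were not limited to neuronal genes, with 82.2% (37 of 45) at endothelial, 70.7% (41 of 58) at Hox and 67.4% (29 of 43) at fibroblast genes. The remaining lists lay from 56.0 to 64.6%. Peaks of 1 gene are not independent, and the median share per gene was 55.8% over astroglial, 57.1% over housekeeping, 73.2% over neuronal and 60% over all genes with an H3K4me1 peak. At Gfap all 3 H3K4me1 peaks had H3K27ac, and at Apoe both did. At Slc1a3, 17 of 25 did, and at Slc1a2, 14 of 41. None of the 8 H3K4me1 peaks at Gjb6 did, and Gjb6 was the only astroglial gene with no H3K27ac peak of any kind. At Syt1, the calcium sensor of synaptic vesicles, 18 of 19 H3K4me1 peaks were without H3K27ac, and at Rbfox3, which encodes the neuronal nuclear protein NeuN, 27 of 31. Other neuronal genes had lower shares, with 2 of 6 peaks at Gad1, 3 of 6 at Tubb3, 4 of 8 at Stmn2, 1 of 2 at Slc17a7 and 6 of 11 at Eomes. Neurod1, Neurod4, Neurog2 and Tbr1 had 4, 6, 3 and 3 H3K4me1 peaks and no H3K27ac peak.

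H3K27ac without H3K4me1 was counted in the same lists. Of the H3K27ac peaks given to any gene, 14.2% were without H3K4me1. The share was 13.6% (19 of 140) at astroglial genes, 12.2% (9 of 74) at neuronal genes, 31.2% (29 of 93) at neural progenitor genes and 30.3% (20 of 66) at housekeeping genes. Sox2 had 7 such peaks against 3 with H3K4me1, Msi1 had 4 against 3, and Hes1 had 5 against 8. Vim had 4 against 1 and Aldoc 4 against 2, while Gfap, Apoe, Slc1a2 and Gja1 had none. Hoxa2 had 6 H3K27ac peaks, all without H3K4me1.

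The gene with most shared H3K27ac peaks was Nckap5, with 79, followed by Zbtb20 with 63 and by Npas3, Pde4b and Pde4d with 54 each. Zbtb20 and Npas3 encode transcription factors of the developing brain, and Pde4b and Pde4d encode cyclic AMP phosphodiesterases. Glis3 and Sema6d had 53 each, Rora 49, Ank2 47, and Egln3 and Ptprg 46 each. Shared H3K4me1 peaks were most numerous at Zbtb20 with 71 and Nckap5 with 65, then at Npas3 with 52, Pde4d with 51, Ank2 with 49, Pde4b and Sema6d with 47, Ctnnd2 and Glis3 with 45 and Sox6, a transcription factor gene, with 44. Since shared peaks of one list overlap those of the other, the likeness of these orders follows from the rule.

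H3K27ac without H3K4me1 was most frequent at Tcf4, which encodes an E-protein, with 19 peaks beside 38 with H3K4me1. Npas3 had 15, the adhesion gene Cadm2 14, and Glis3, Nckap5, Zbtb20 and Qk, whose product binds RNA in glia, 12 each. Ank2, Chd2, Ctnnd2, Pdlim5 and Tnrc18 had 11 each, and at Tnrc18 they outnumbered the 5 peaks with H3K4me1. Only 17 genes had 10 or more peaks of this class, and 61.6% of its 5528 genes had a single one.

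Among H3K4me1 peaks without H3K27ac, Ntm led with 99 peaks, followed by Auts2 with 93, Cdh13, Kirrel3 and Ptprd 87 each, Pde4d 86, Nckap5 and Opcml 84 each, Lpp 81, and Npas3 and Nrp2 78 each. Ntm and Opcml encode related cell adhesion molecules of the IgLON family, Cdh13 a cadherin, Kirrel3 an adhesion molecule of the immunoglobulin superfamily and Ptprd a receptor phosphatase. At Ntm, 19 H3K4me1 peaks had H3K27ac, and at Nckap5 65 did. Gene length moved with all these orders. The leading genes had median lengths of 689 kb and 454 kb in the H3K27ac classes and of 672 kb and 968 kb in the H3K4me1 classes, while all genes with a peak of each class had medians of 23.1 to 32.2 kb. The leading genes took from 0.958 to 1.59% of the peaks given to genes.

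**Figure D4:**
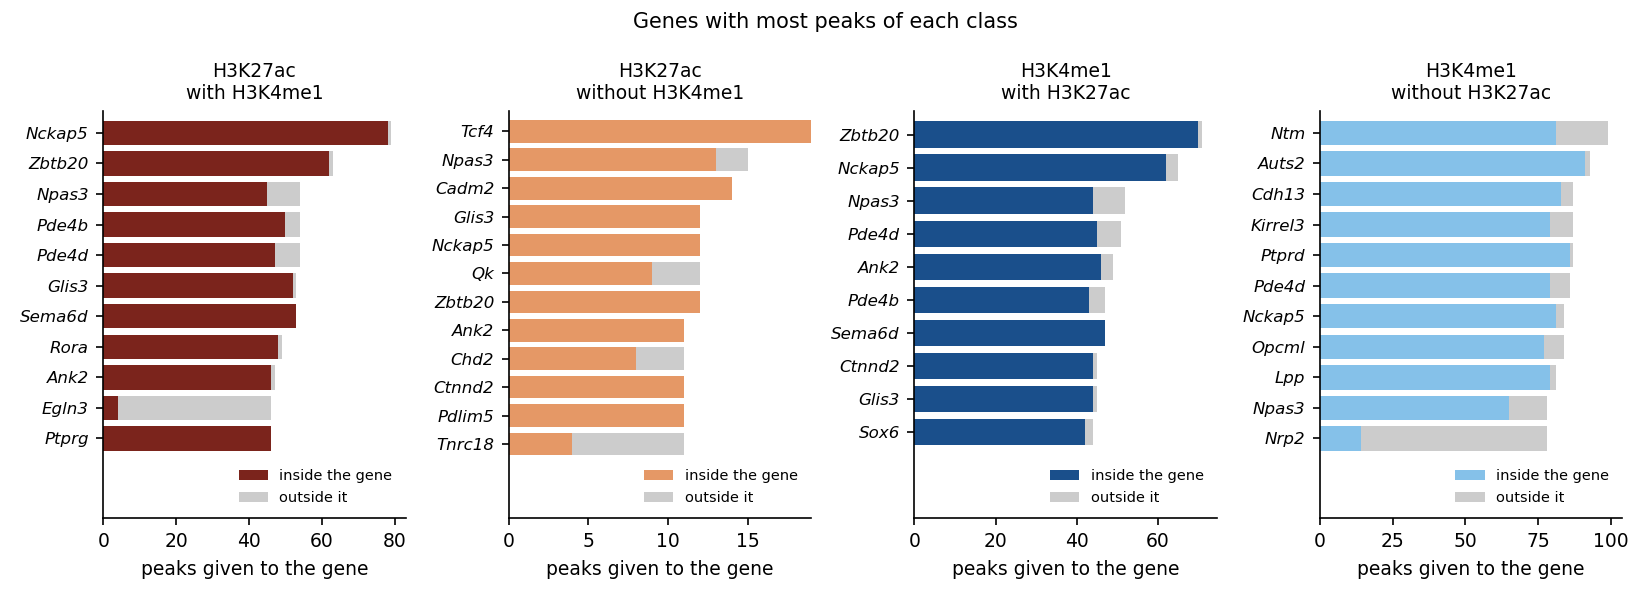
The number of peaks given to each of the leading genes of the 4 classes, in color where the peak centre lay in the gene itself and in gray where it lay outside. Nckap5 led with 79 shared H3K27ac peaks, of which 78 were inside it, whereas Egln3 had 4 of 46 and Nrp2 14 of 78 inside.

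The nearest start site is not always that of the gene a peak lies in. Of the 46 shared H3K27ac peaks given to Egln3, 37 lay in its neighbor Npas3, and of the 78 H3K4me1 peaks without H3K27ac given to Nrp2, 61 lay in Pard3b. Genes were also ranked by peaks per 100 kb of gene. Among H3K27ac peaks with H3K4me1 the leaders were Lrtm1 (34 of 36 peaks in Cacna2d3), Fam92b, Egln3, Trim32 (16 of 18 in Astn2) and Aqp4. The same 5 genes led among H3K4me1 peaks with H3K27ac. At Aqp4, 8 of 22 shared H3K27ac peaks lay in Chst9, 13 lay between genes and the farthest was 149 kb from the start. Among H3K4me1 peaks without H3K27ac they included Trim32, Lrtm1, Lrrtm1 (39 of 43 in Ctnna2) and Flrt3 (47 of 51 in Macrod2). Among H3K27ac peaks without H3K4me1 they were Nr2f1, Klrb1c, Scd2, Bcl9l and 2610203C20Rik, with 5 to 7 peaks each. Nr2f1, which encodes an orphan nuclear receptor of the brain, had 7 such peaks, 3 of them inside it. With each peak given to every coding gene body that it overlapped, 5 of 11, 5 of 12, 5 of 10 and 4 of 11 leading genes stayed among the leaders, and the lists were headed by Gm20388 and, in 3 of the 4 classes, next by Fgfr2, whose annotated spans are 4435 kb and 3009 kb.

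H3K4me1 peaks without H3K27ac, and no H3K27ac peak of either class, were given to 2561 genes. The tetraspanin gene Tspan18 had most, with 28 peaks, 24 of them inside it, and H3K4me1 only at its promoter. St6galnac5 and Trim42 had 23 each, of which 13 and 22 lay in other genes, and Pappa, a gene for a metalloprotease, had 22. Sulf1 had 21, Cobl, Dync1i1, Gm5423 and Zmat4 had 18 each, and the claudin gene Cldn10 had 16. H3K27ac without H3K4me1 and no shared peak, with or without H3K4me1 alone, was found at 510 genes, and no peak at all at 4009.

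The 2 peaks of highest −log10 q in each list were at the same sites. Both lists were led by a peak at Gm10800, at chr2:98506398-98507548 in the H3K27ac list with a −log10 q of 29695, followed by a site at chr9:35112709-35113181. These 2 sites held ranks 1 and 2 in all 6 peak lists of the series. Within each list taken by itself, peaks with a −log10 q over 500 numbered 19 in the H3K27ac list and 13 in the H3K4me1 list, and 16 and 13 of them had the other mark. Leaving them out left the shares at 86.8 and 36.0%. The highest H3K27ac peaks without H3K4me1 were at Atp6v0c and Cops5, within 51 and 78 bp of a start site and with −log10 q of 574 and 531, with a peak 61317 bp from Gm15319 ranked between them (559). Atp6v0c encodes a subunit of the vacuolar proton pump and Cops5 a subunit of the COP9 signalosome. The highest H3K4me1 peaks without H3K27ac were at Cdca3 (100), Tspan18 (98.8) and D930028M14Rik (86.2).

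Motif letters were counted in the 200 bp about each summit, exactly and on both strands. The letters described here were TTGGCA for the NF1 half-site, which NFI factors bind, TGANTCA for AP-1 and TTCNNNGAA for STAT. Also described were TGTGGT for RUNX, CAGCTG for an E-box and GGGCGG for the GC box of SP and KLF factors. Letters of some further motifs were counted and are not described. None of these letter sets was masked where it overlapped another. One H3K4me1 peak without H3K27ac is shown for the NF1 half-site, in capitals, 7625 bp upstream of the radial glial gene Fabp7 at chr10:57496962-57497161. It was chosen after its values were seen, as the peak of highest −log10 q in its class at an astroglial gene that held the letters outside exons.
Fabp7, H3K4me1 without H3K27ac: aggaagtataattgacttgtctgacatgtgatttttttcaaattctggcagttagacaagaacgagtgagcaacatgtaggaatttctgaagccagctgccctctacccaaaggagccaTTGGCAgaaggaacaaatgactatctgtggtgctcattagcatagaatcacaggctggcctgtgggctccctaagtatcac
Its nearest H3K27ac peak lay 5830 bp away.

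The NF1 letters were found in 17.5% (17.3 to 17.7%) of the H3K4me1 peaks without H3K27ac and in 13.4% (13.1 to 13.6%) of those with it. All 47886 windows of the same length taken every 50 kb held them in 9.59%, and all windows at coding start sites in 8.04%. The difference within the H3K4me1 list had the same direction in all 5 quintiles of width, from 16.8 against 12.03% in the narrowest to 16.6 against 13.6% in the widest, and away from promoters (17.7 against 13.7%). About peak centres in place of summits it was 17.9 against 14.9%. AP-1 letters followed the same order, with 8.52% without and 6.18% with H3K27ac, beside 5.9997% of the windows every 50 kb and 4.34% at start sites. About peak centres the AP-1 values were 9.06 and 7.57%, and in the widest quintile they were 8.44 and 8.46%, so that the order was gone there. E-box letters were in 16.2 and 13.9% (7.56% every 50 kb, 11.8% at start sites). STAT letters were in 6.74 and 6.22%, both under the 7.25% of the windows every 50 kb, with 4.90% at start sites. About peak centres the STAT values were 6.73 and 6.72%, and in the widest quintile 6.18 and 6.59%. RUNX letters were in 14.8 and 14.4% (13.8% every 50 kb, 10.1% at start sites), but in the widest quintile in 13.9 and 15.0%. GC box letters had the reverse order, with 4.45% without and 5.95% with H3K27ac, but in the widest quintile they were at 6.86 and 5.82%. At promoters the GC box values were 16.4% without and 13.3% with H3K27ac, and away from promoters 4.06 and 5.05%.

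**Figure D5:**
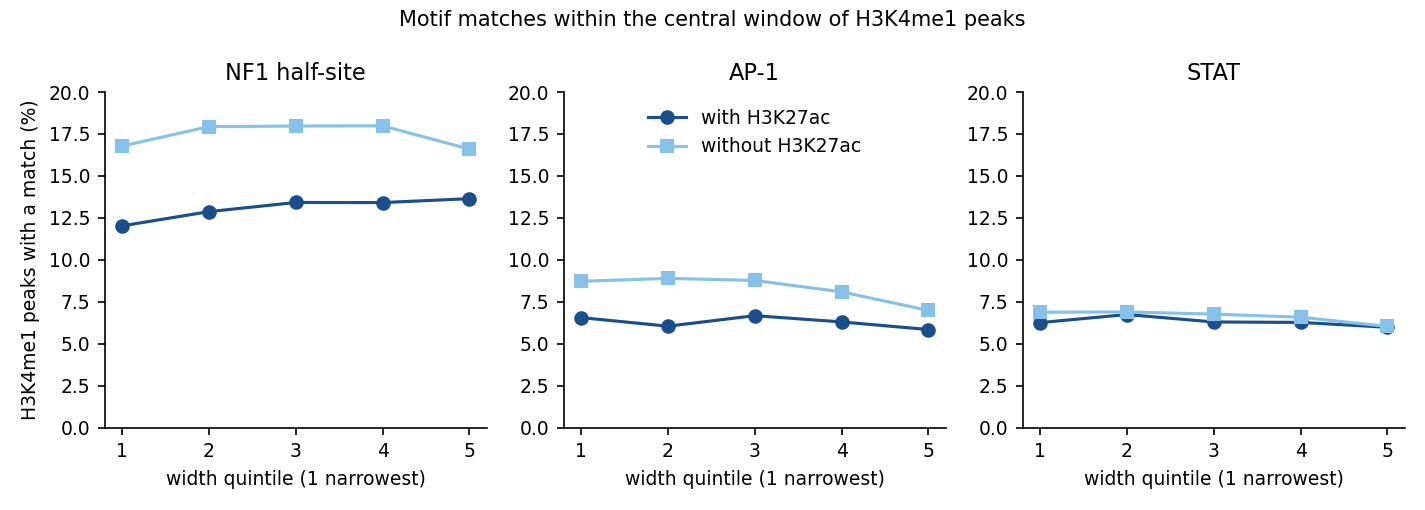
The share of H3K4me1 peaks (%) with NF1, AP-1 or STAT letters in the 200 bp about the summit, for peaks with and without H3K27ac in each quintile of width, the narrowest at 1. NF1 letters stood at 16.6 to 17.99% without and at 12.03 to 13.6% with H3K27ac in every quintile.

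In the H3K27ac list the order of the classes was different. NF1 letters were in 11.8% (11.5 to 11.998%) of the peaks with H3K4me1 and in 9.59% (9.04 to 10.16%) of those without it, and E-box letters in 13.1 and 10.1%. The windows every 50 kb also held NF1 letters in 9.59%. AP-1 letters were in 5.82 and 5.01%, STAT letters in 6.20 and 5.73%, and RUNX letters in 13.2 and 11.5%. Away from promoters all of these kept their direction, with STAT at 6.36 and 6.11%. At promoters RUNX turned, with 7.93% with and 8.49% without H3K4me1, and the others kept their direction. These shares were not split by width. GC box letters were in 15.3% of the H3K27ac peaks without H3K4me1 and in 8.79% of those with it, beside 1.98% of the windows every 50 kb and 40.1% at start sites. The median GC content of the windows every 50 kb was 42%, below that of all 4 classes, and its part in these shares was not tested. A match gives only that the letters were there, and it does not show that a factor was bound.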

How the data were processed

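H3K27ac and H3K4me1 ChIP-seq of eA (2 replicates each) was analysed. Per the study's methods, the authors aligned reads uniquely to mm9 with Bowtie, merged the replicates with SAMtools 0.1.19 and called peaks with MACS2 at default parameters, without an input control. The deposited lists give each peak's position and summit, an integer score from the authors' peak caller, the fold ratio over local background in the authors' reads, and the authors' −log10 q-value. Score, fold and −log10 q follow depth, which is unknown here, so their sizes are not comparable between lists. Merging, and calling without input, leave replicate spread and input artefacts unmeasured. Peaks on chromosomes 1 to 19 were kept. Left out were 2041 H3K27ac and 4214 H3K4me1 peaks on X, 44 and 37 on Y and 4 and 4 on M.

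Classes, widths, gaps, GENCODE M1 locations and motif letters were computed with Python 3.11.15, NumPy 2.4.6, pandas 2.3.3, SciPy 1.17.1, pysam 0.24.0 and samtools 1.23.1, and plotted with matplotlib 3.10.9. The overlap, gap and joining functions were tested on simulated data. Wilson 95% intervals cover counting error only. No test was made, since each mark has 1 merged list. The members and lists were chosen with earlier results of these data known. Named were the 10 leading genes per class (up to 12 with ties), the 5 leading genes per 100 kb (at least 5 peaks and 10 kb), the 3 peaks of highest −log10 q per class and members of the gene lists. Some genes that this rule would name are not reported here. Symbols were matched to GENCODE M1, with Map2 and Spi1 through RefSeq synonyms, and Sox1 was not matched. Sequences are from the mm9 reference. RNA-seq, knockdown samples and the lists of other stages were not used, apart from the ranks of the leading sites.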

Additional observations from a re-analysis of the deposited data

How the results depend on the processing

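Values are given in the order share of H3K27ac peaks with H3K4me1, share of H3K4me1 peaks with H3K27ac, then the promoter shares of H3K27ac with H3K4me1, H3K27ac without it, H3K4me1 with H3K27ac and H3K4me1 without it. With the summit required inside a peak of the other mark they were 73.6, 25.4, 7.32, 22.5, 11.2 and 4.20%. With the other mark accepted within 1 kb they were 96.4, 48.3, 11.3, 12.4, 10.3 and 1.97%. At a −log10 q of 5 or more in both lists they were 84.9, 37.7, 11.7, 22.5, 11.6 and 3.60%. With lists of equal length they were 69.2, 58.9, 9.62, 15.1, 9.65 and 4.41%. With peaks within 500 bp joined they were 91.6, 38.3, 10.3, 8.99, 10.8 and 2.98%. With X and Y included the first share was 86.5%. The promoter shares were 19.6, 35.1, 19.6 and 4.96% for centres within 1 kb on either side of a start, and 13.0, 22.6, 13.5 and 4.69% for start sites of all transcripts.

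Among these settings, only joining turned the order of the promoter shares in the H3K27ac list, from 1.79 times as high without H3K4me1 to 0.876 times. With the other mark accepted within 1 kb it fell to 1.10 times, and the intervals of the shares without and with H3K4me1 overlapped (11.3 to 13.7% and 11.1 to 11.5%). In the H3K4me1 list the share with H3K27ac was 2.19 to 5.22 times that without it under all of these settings. The order of median widths in the H3K27ac list turned under the summit rule, with 452.5 bp without and 377 bp with H3K4me1. Leaving out peaks of −log10 q over 500, a setting chosen after seeing the data, moved no share beyond its interval. The cause of these shifts was not tested. No paired analysis was possible because the replicates were merged before peak calling and no test was made. Depth is unknown, so weak peaks missing from a list cannot be told apart from sites without the mark.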
